A study of Mus musculus with 6 samples.

Results

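The S100 genes encode small calcium-binding proteins, and 10 of them were followed here in the epididymal fat of mice on a normal or a high-fat diet: S100a1, S100a4, S100a6, S100a8, S100a9, S100a10, S100a11, S100a13, S100a16 and S100b. They are named S100 family members, set by symbol with no measured value in the rule, though chosen with earlier results of these data known. They are 10 of the 54532 genes listed. Further S100 genes are outside this set and are given by their counts. Epididymal fat, the visceral depot beside the epididymis, was taken from male C57BL/6J mice that received a normal diet with 4.5% fat (ND) or a high-fat diet with 60% fat (HFD) for 16 weeks from 4 weeks of age, and neither group received a compound. RNA was sequenced in 3 libraries per diet, and the sources used here do not say how many mice went into a library, so a p-value measures the spread between these libraries. All 10 genes had enough counts to be tested, among 15751 genes tested in all.

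S100 proteins are dimers whose subunits each carry a pair of EF hands, the helix-loop-helix folds that bind calcium. Calcium opens a surface on the dimer through which it binds partners inside the cell, among them annexins, the cytoskeleton and calcium channels. Some members are also released and then act as alarm signals on receptors such as RAGE and Toll-like receptor 4. S100a8 and S100a9 are best known from neutrophils and monocytes, S100a4 from fibroblasts and macrophages, S100a1 from muscle and S100b from glia and adipocytes.

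The genes lie close together. In GENCODE M21 on build GRCm38, 9 of the 10 are on chromosome 3 and S100b is on chromosome 10. S100a1, on the minus strand, and S100a13, on the plus strand, are transcribed away from each other with 42 bases between them. S100a8, on the plus strand, and S100a9, on the minus strand, face each other across 22596 bases. S100a11 and S100a10 form a separate pair 2824766 bases further along. In each of these pairs 1 gene passed the test between the diets and its neighbour did not. No promoter window was found for S100a10, and the pair of S100a11 and S100a10 is not shown. For the other pairs, the sequences that part or precede the genes are shown from RefSeq's promoter windows (GRCm38.p6). The first sequence is the whole stretch between S100a1 and S100a13 (chr3:90514393-90514434, plus strand). The others are the bases before the annotated starts of S100a8 (chr3:90668821-90668977, plus strand) and of S100a9 (chr3:90695722-90695971, minus strand). Each is read 5′ to 3′ on the strand named. Capitals mark matches to the searched motifs GAGGAA, an ETS-type core that appears as TTCCTC when read from the other strand, TTGCNNAA, a C/EBP-type core, and GGGCGG, a GC box.
S100a1 to S100a13: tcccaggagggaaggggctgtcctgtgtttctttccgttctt
S100a8: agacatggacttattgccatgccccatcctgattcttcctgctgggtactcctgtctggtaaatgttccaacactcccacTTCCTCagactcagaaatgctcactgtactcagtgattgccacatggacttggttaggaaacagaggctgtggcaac
S100a9: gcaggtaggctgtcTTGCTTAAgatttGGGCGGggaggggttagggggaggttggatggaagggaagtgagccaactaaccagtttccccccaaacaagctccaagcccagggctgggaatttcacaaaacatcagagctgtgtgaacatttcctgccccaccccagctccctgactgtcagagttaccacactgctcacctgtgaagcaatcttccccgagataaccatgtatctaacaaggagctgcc

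Promoter windows were found for 9 members, all but S100a10, with 2 windows for S100a16, and 5 motifs were searched on both strands of the full windows from 250 bases before to 50 after each start. No searched motif overlapped the 42 bases between S100a1 and S100a13. GAGGAA was present in the windows of S100a4, S100a8, S100a11 and S100a16 and in 28.3% of all 32817 windows. TTGCNNAA was found in S100a9 and in 10.8% of all windows. TATAAA, the letters of the TATA box, was found in S100a4, S100a8 and S100a9 and in 13.6% of all windows. The match began 31 and 30 bases before RefSeq's start in S100a4 and S100a8, and at that start itself in S100a9. TGANTCA, the AP-1 site, was in S100a11 and S100a16 and in 7.81% of all windows, and GGGCGG was in S100a9, S100a11 and S100a16 and in 35.6%. In S100a8 the TATAAA and another TTCCTC lie after the printed stretch, since RefSeq's start is downstream of GENCODE's. These are matches of letters and were not linked to binding.

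The coding sequences of the 10 genes were short, from 267 bases in S100a6 and S100a8 to 480 in the longest S100a13 model, without the stop codon. Over the 45 pairs, identical bases made up 41.8% to 67.1% of the columns of the aligned coding sequences. Gaps count as columns, so a difference in length lowers this identity. It was highest between S100a1 and S100b, lowest between S100a8 and S100a13, which differ most in length, and 53.1% between S100a8 and S100a9. The longest identical run between any pair of their transcripts was 19 bases.

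The libraries held 16996896 to 18859320 counts each. Levels between libraries are given in CPM, which scales counts to library depth with TMM factors, and the detection floor of 3 counts corresponded to 0.150 to 0.181 CPM. ND replicate 3 carried 751 counts of the epithelial gene Epcam, against 0 to 4 in the other libraries.

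On HFD, 4 of the 10 S100 genes rose and 2 fell at an adjusted p under 0.05 by edgeR's quasi-likelihood test. S100a4, S100a6, S100a8 and S100a11 rose, and S100a1 and S100a16 fell. S100a4 entered the test through its HFD libraries, as given below, so its call is not taken as support. Of all genes tested, 9.85% were higher and 6.04% were lower by the same rule. DESeq2 called the same 6 genes in the same directions, where 10.7% of its tested genes were higher and 8.42% lower. The values of the diets did not overlap in 8 of the 10 genes, with HFD above ND in 5 and below in 3, against 40.9% of all genes tested, 21.7% above and 19.1% below. Changes are given as log2FC, the log2 ratio of HFD to ND. The median log2FC of the 10 genes was 0.26, and that of all genes tested was 0.0074. Leaving out 1 library at a time left 0 to 3 of the rises and 1 or 2 of the falls past the threshold. None of the rises passed without ND replicate 1, 2 or 3 or HFD replicate 1. Of all genes tested, those called higher went from 1552 to 337, 376, 607 and 380 in those edgeR fits.

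**Figure D1:**
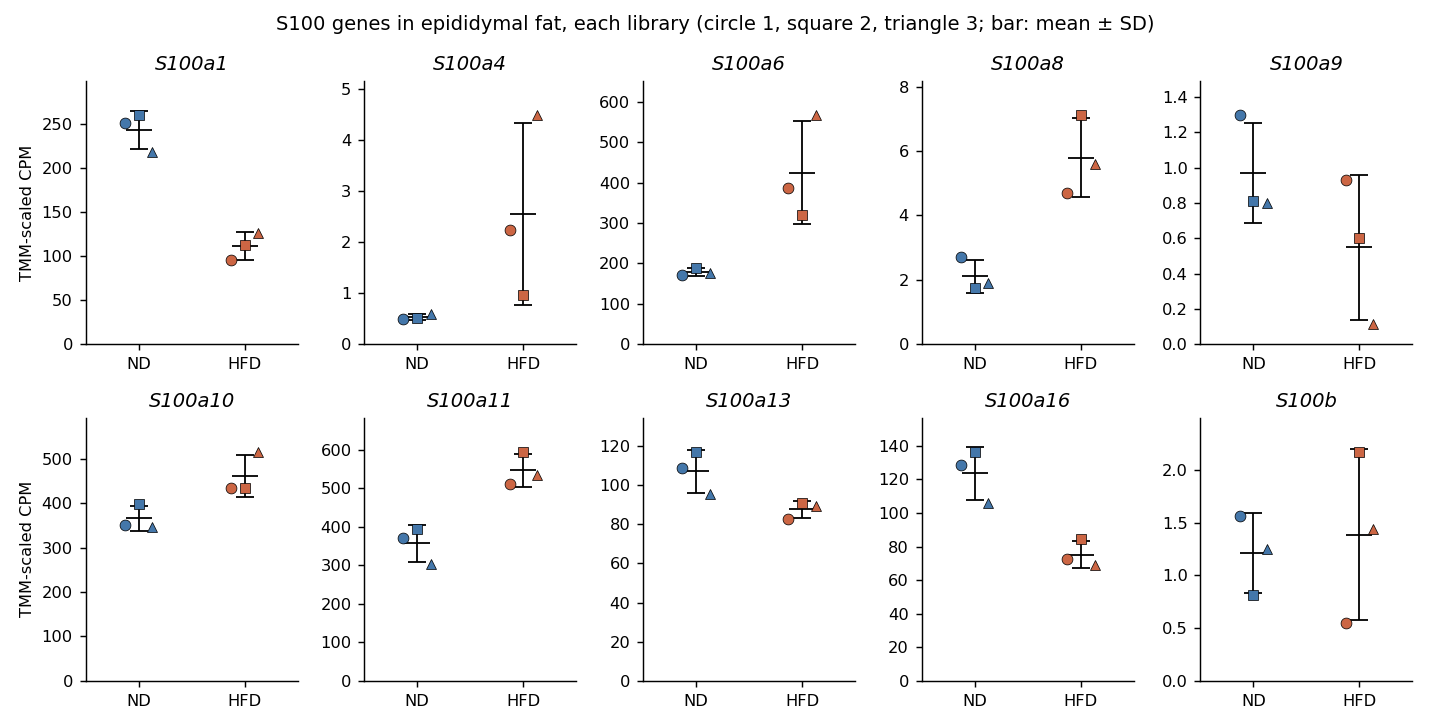
TMM-scaled CPM of the 10 S100 genes in each ND (blue) and HFD (orange) library, with circles, squares and triangles for replicates 1, 2 and 3 and the bar for mean ± SD. In S100a9 and S100b the diets overlap, and in the other 8 genes every HFD library lies on one side of every ND library.

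**Figure D2:**
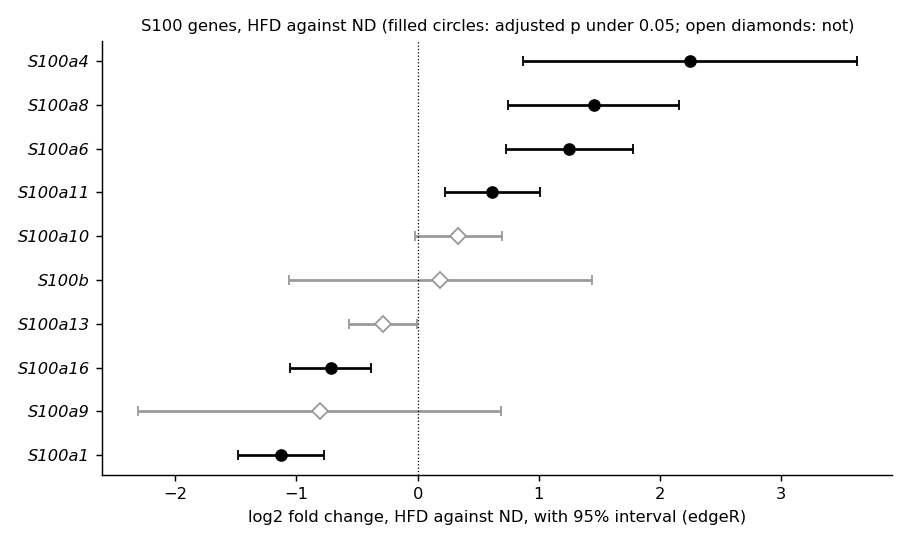
Log2 fold change of each S100 gene for HFD against ND, with its 95% CI from edgeR. The filled circles of S100a4, S100a6, S100a8 and S100a11 lie above 0 and those of S100a1 and S100a16 below it.

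Per length, the family spanned a wide range of levels. The authors' FPKM values, which divide the counts by the exon length of each gene, were highest for S100a11, with 709 ± 99.4 FPKM under ND versus 1076 ± 84.4 FPKM under HFD (SD over 3 libraries per diet). By FPKM it ranked between 28 and 55 among all genes in the 6 libraries. On ND it was followed by S100a1 with 355 ± 34.6 FPKM, S100a10 with 306 ± 25.4 FPKM, S100a13 with 152 ± 16.6 FPKM, S100a6 with 133 ± 7.06 FPKM and S100a16 with 77.5 ± 10.5 FPKM (SD over 3 libraries per diet). Among these neighbours, S100a1 and S100a10 overlapped between libraries, as did S100a13 and S100a6. The remaining 4 genes were far lower, from 3.09 ± 0.762 FPKM for S100a8 to 0.826 ± 0.259 FPKM for S100b (SD over 3 libraries per diet).

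On HFD the order of the abundant genes was different. S100a10, at 382 ± 37.8 FPKM, and S100a6, at 312 ± 92.5 FPKM, came after S100a11 and overlapped each other, and S100a1 came next at 161 ± 22.1 FPKM (SD over 3 libraries per diet). Of the summed FPKM of the 10 genes, S100a1 took 20.0% to 20.7% in the ND libraries, compared with 7.04% to 8.08% in the HFD libraries. S100a6 went from 7.17% to 8.44% on ND to 11.1% to 18.4% on HFD. S100a10 stayed between 16.6% and 18.9% in all 6 libraries. The FPKM of S100a6 divides by 1367 exon bases that include alternative exons, so its level depends on that choice of length.

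**Figure D3:**
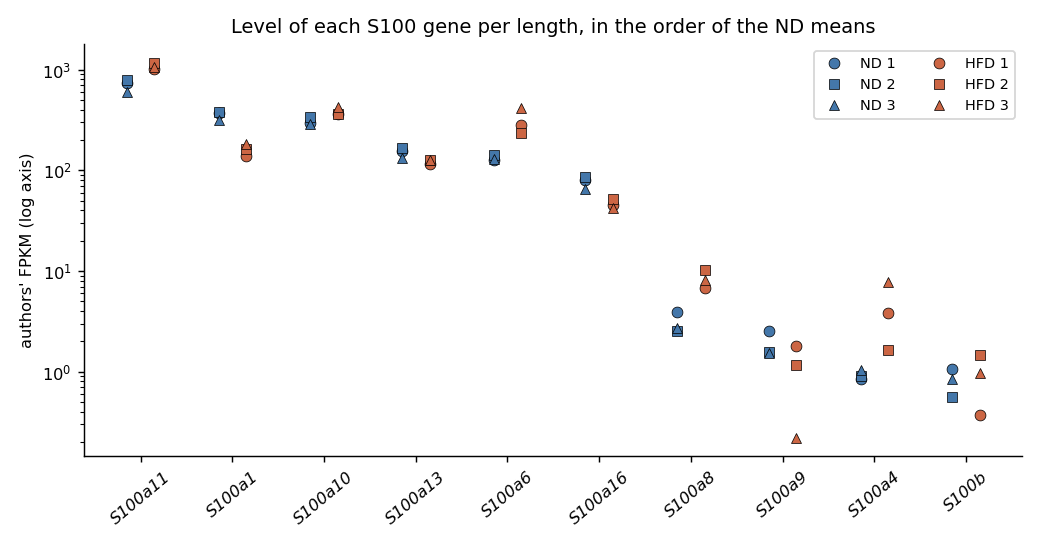
The authors' FPKM of each S100 gene in every library, on a log axis, in the order of the ND means. S100a11 lies highest on both diets, S100a1 drops below S100a10 and S100a6 on HFD, and S100a8, S100a9, S100a4 and S100b lie below the other 6 in every library.

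S100a1 (ENSMUSG00000044080, chr3:90511034-90514392), which in muscle binds the ryanodine receptor and the calcium pump SERCA, was the member that fell most. It had 251, 260 and 218 CPM in the ND libraries, compared with 95.6, 112 and 126 CPM in the HFD libraries. The highest HFD library was well below the lowest ND library. Its log2FC was -1.13 (SE 0.15, 95% CI -1.48 to -0.77, adjusted p = 0.00789, edgeR), and it passed in all 6 fits that left out 1 library. The muscle gene Acta1 also fell, from 39.3 ± 23.0 CPM to 4.23 ± 1.33 CPM (SD over 3 libraries per diet), and was the only gene called of 5 skeletal muscle markers, 2 of which were tested, while Ckm was at 0 in all libraries. The summed level of those 5 genes was 57.5 to 110 CPM under ND versus 19.2 to 36.4 CPM under HFD, and its part in the fall of S100a1 was not tested.

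S100a16 (ENSMUSG00000074457, chr3:90537254-90543151), a widely expressed member that promotes the formation of fat cells in culture, also fell. Its values were 128, 136 and 106 CPM under ND versus 72.5, 84.3 and 68.9 CPM under HFD, again without overlap. S100a16 had a log2FC of -0.71 (SE 0.14, 95% CI -1.05 to -0.38, adjusted p = 0.0196, edgeR). It lost the threshold without ND replicate 1, ND replicate 2 or HFD replicate 1, with adjusted p-values of up to 0.0872 by edgeR.

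S100a13 (ENSMUSG00000042312, chr3:90514435-90524581), which takes part in the release of FGF1 and interleukin-1α from cells, starts next to S100a1. It had 109, 117 and 95.3 CPM under ND versus 82.8, 90.7 and 89.4 CPM under HFD. All HFD values were below all ND values, but the gap was small. The log2FC of -0.29 (SE 0.12, 95% CI -0.57 to -0.01) did not pass (adjusted p = 0.141, edgeR). The interval of S100a13 lay above that of S100a1, whose upper bound was -0.77, and the difference between the neighbours itself was not tested.

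As S100a1 and S100a16 are expressed in a tissue made largely of adipocytes, the adipocyte marker list is given beside them. Of its 12 genes, Retn and Slc2a4 were lower on HFD and 10 were not called, with summed levels of 34690 to 44430 CPM under ND versus 21160 to 40650 CPM under HFD. The sum was lowest in HFD replicate 3, in which S100a1 had the highest of its HFD values. S100a16 stood in the order of the sum, highest in HFD replicate 2 and lowest in replicate 3. The part of the adipocyte markers in both falls was not tested. In these samples of whole tissue, fewer cells of a type and less RNA per cell cannot be told apart.

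S100a6 (ENSMUSG00000001025, chr3:90612882-90624181), also called calcyclin, binds annexins and the ubiquitin-ligase partner CacyBP. It had 171, 189 and 177 CPM under ND versus 388, 320 and 566 CPM under HFD. The ND libraries were close together, and the HFD libraries were all higher and spread more widely, with replicate 3 the highest. S100a6 had a log2FC of 1.25 (SE 0.22, 95% CI 0.73 to 1.77, adjusted p = 0.0143, edgeR), a 2.38-fold rise. Its adjusted p was up to 0.0698 in the 6 fits without 1 library, of which it passed those without HFD replicate 2 or 3.

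S100a4 (ENSMUSG00000001020, chr3:90603771-90606045), which binds non-muscle myosin IIA and is linked to the movement of fibroblasts, macrophages and tumour cells, had the largest estimate but few counts. Its counts were 9, 9 and 12 under ND versus 41, 16 and 78 under HFD. Every HFD library was higher, and the spread on HFD was wide, at 2.57 ± 1.79 CPM against 0.536 ± 0.0582 CPM on ND (SD over 3 libraries per diet). S100a4 had a log2FC of 2.24 (SE 0.59, 95% CI 0.87 to 3.62, edgeR). It entered the test through its HFD libraries, so its p-value is not given as support. It passed without HFD replicate 2, and did not pass without any of the other 5 libraries in turn, with adjusted p-values of up to 0.140 from the same test. Without HFD replicate 3 the log2FC was 1.55 (adjusted p = 0.0919, edgeR).

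The counts of S100a4 carry a particular limit. Of its 584 exon bases, 302 (51.7%) are also exon bases of Gm42674, a gene model on the same strand, and Gm42674 was listed at 0 counts in all 6 libraries. How reads that fall on both genes were treated is not given in the sources used here, and their part in the low level of S100a4 was not tested. No other member shared exon bases with another gene.

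In S100a6 and S100a4 the HFD libraries stood in the order replicate 3, replicate 1, replicate 2, and the summed macrophage markers stood in the same order. S100a10, which was not called, had this order too, while S100a8 and S100a11, which rose, were highest in HFD replicate 2. Of the 14 macrophage markers 10 were higher on HFD, 0 were lower and 4 were not called, and all 14 were tested. Their summed level was 1986 to 2085 CPM on ND and 5418, 4268 and 9236 CPM in HFD replicates 1, 2 and 3. Their part in the rises of S100a6 and S100a4 was not tested.

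S100a11 (ENSMUSG00000027907, chr3:93520488-93526287), a partner of annexin A1 in membrane repair and growth control, rose by less. It had 372, 395 and 304 CPM under ND versus 512, 595 and 536 CPM under HFD. The diets did not overlap, and HFD replicate 2 was the highest library. Its log2FC was 0.62 (SE 0.17, 95% CI 0.23 to 1.005, adjusted p = 0.0458, edgeR). This call was close to the threshold and was lost in each of the 6 fits without 1 library, with adjusted p-values from 0.0576 to 0.151, and with DESeq2's size factors (0.0559) or without the filter on low counts (0.0807).

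S100a10 (ENSMUSG00000041959, chr3:93555080-93564643), also called p11, has lost calcium binding and forms a tetramer with annexin A2 at the cell membrane. It had 352, 398 and 347 CPM under ND versus 435, 434 and 515 CPM under HFD. All HFD values were higher, but the log2FC of 0.34 (SE 0.15, 95% CI -0.02 to 0.69) did not pass (adjusted p = 0.171, edgeR).

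S100a8 and S100a9 encode the chains of calprotectin, which makes up a large part of the soluble protein of neutrophils, and their RNA is usually found together. In this fat both were low, and S100a8 rose on HFD. S100a8 (ENSMUSG00000056054, chr3:90668978-90670035) had 50, 30 and 38 counts under ND versus 86, 118 and 97 under HFD, or 2.11 ± 0.514 CPM and 5.80 ± 1.22 CPM (SD over 3 libraries per diet). Every HFD library was above every ND library. This gave a log2FC of 1.45 (SE 0.30, 95% CI 0.75 to 2.16, adjusted p = 0.0219, edgeR), and it passed without HFD replicate 2 or 3 and not without any other library, with adjusted p-values of up to 0.0787.

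S100a9 (ENSMUSG00000056071, chr3:90692632-90695721) had 24, 14 and 16 counts under ND versus 17, 10 and 2 under HFD. The diets overlapped, and HFD replicate 3 was under the floor of 3 counts. Its log2FC was -0.81 (SE 0.64, 95% CI -2.30 to 0.69, adjusted p = 0.412, edgeR), an interval whose upper bound lay below the lower bound of S100a8. The estimate went from -1.45 without HFD replicate 1 to -0.35 without HFD replicate 3.

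The ratio of S100a8 to S100a9 counts within a library does not depend on depth. It was 2.08, 2.14 and 2.38 in the ND libraries, compared with 5.06, 11.8 and 48.5 in the HFD libraries. All HFD libraries were higher than all ND libraries. The ratio of HFD replicate 3 rests on 2 counts of S100a9, with an exact 95% counting interval of 13.1 to 406, and that of HFD replicate 1 had 2.98 to 9.08, which overlapped those of the ND libraries (1.10 to 4.56). A two-sided exact permutation test of the log ratio gave p = 0.1, the smallest that 3 against 3 libraries allow. S100a8 thus took 67.6% to 70.4% of the counts of the pair on ND and 83.5% to 98.0% on HFD. The exact 95% binomial intervals, which cover counting error only, reached from 52.4% to 82.0% over the ND libraries and from 74.9% to 99.8% over the HFD libraries.

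Of 12 neutrophil markers, 4 had enough counts to be tested, and of these Csf3r was higher, Camp was lower and Elane and Lcn2 were not called. Ly6g, the defining surface protein of mouse neutrophils, had 1 count in all libraries together, and Retnlg had 0 to 9. Csf3r, a receptor that monocytes and macrophages also carry, had 83, 52 and 54 counts under ND versus 153, 89 and 216 under HFD. Camp, which encodes the cathelicidin stored in neutrophil granules, had 17, 17 and 14 counts under ND versus 0, 2 and 0 under HFD. It entered the test through its ND libraries, so its call is not taken as support. The summed level of the list was 11.3 to 104.5 CPM under ND versus 12.1 to 20.3 CPM under HFD, and its upper end on ND came from ND replicate 3, with 1980 counts of Lcn2. That library also carried the 751 counts of the epithelial gene Epcam, and the part of epithelial RNA in its Lcn2 was not tested.

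**Figure D4:**
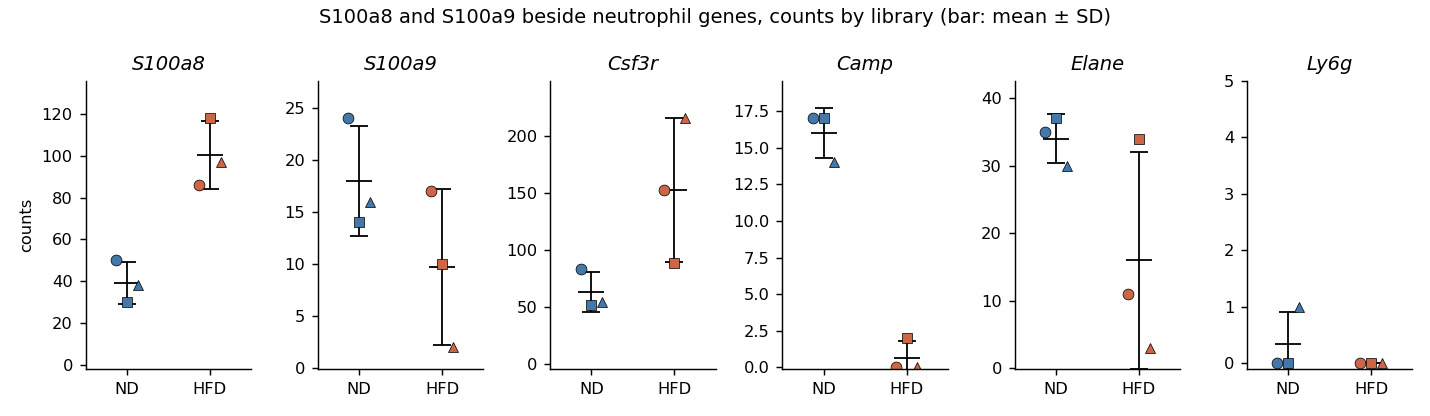
Counts of S100a8 and S100a9 beside 4 neutrophil genes in each ND (blue) and HFD (orange) library, with mean ± SD. S100a8 and Csf3r lie higher in all HFD libraries, Camp lies at 0 to 2 counts on HFD, S100a9 and Elane overlap between the diets, and Ly6g has 1 count in 1 ND library.

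S100b (ENSMUSG00000033208, chr10:76253853-76261159), a marker of glia that adipocytes also make, was low in every library. It had 29, 14 and 25 counts under ND versus 10, 36 and 25 under HFD, and the diets overlapped. The log2FC was 0.19 (SE 0.53, 95% CI -1.06 to 1.44, adjusted p = 0.835, edgeR), so a change of up to 1.44 upward or 1.06 downward on the log2 scale cannot be told from none at this depth. Among 7 Schwann cell markers, of which 5 were tested, Mbp was higher and Cdh19 lower, and the summed level was 38.9 to 53.1 CPM under ND versus 74.3 to 78.3 CPM under HFD, most of it from Mbp. Cdh19 entered the test through its ND libraries, so its call is not taken as support.

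Of 8 further S100 genes looked up, 7 were found in the table, S100a2 and S100z had 0 counts in all libraries, and S100a3, S100a5, S100a7a and S100a14 had at most 10 counts in any library. S100g, which encodes calbindin-D9k, the vitamin D-dependent calcium buffer of the intestine, was the exception. It had 0, 2 and 0 counts under ND versus 28, 20 and 20 under HFD, so that it was at or under the floor in every ND library and above it in every HFD library. At 1.30 ± 0.205 CPM on HFD (SD, n = 3), it was at least 8.0-fold higher than the floor of 3 counts per ND library. It entered the test through its HFD libraries, so its p-value is not given as support. S100a14, an epithelial member, had 4 counts in ND replicate 3 and 0 to 2 in the others.

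The genes of S100 binding partners were taken from lists of receptors, annexins and other partners. Of 35 genes 31 were tested, and 11 of these (35.5%) were higher and 1 (3.23%) was lower on HFD, against 9.85% and 6.04% of all genes tested. These genes are not independent of each other, and the lists were chosen with earlier results of these data known. Ryr2, described below, entered the test through its HFD libraries. The shares are therefore a description only. Without ND replicate 1, 2 or 3 or HFD replicate 1, 3 of the partner genes were higher and 0 lower. Without HFD replicate 2, 14 were higher.

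The annexins, which bind membranes in the presence of calcium, made up most of the partner genes that rose. Of 12 annexin genes 10 were tested, and 6 were higher, 1 was lower and 3 were not called, with a median log2FC of 0.72. Anxa1, which encodes the partner of S100a11, rose from 347 ± 41.7 CPM to 1461 ± 438 CPM (SD over 3 libraries per diet), a log2FC of 2.07 (SE 0.26, adjusted p = 0.00652, edgeR). Anxa2, which encodes the partner of S100a10, rose from 767 ± 103 CPM to 1639 ± 446 CPM (SD over 3 libraries per diet), a log2FC of 1.09 (SE 0.24, adjusted p = 0.0266), while S100a10 itself was not called. Anxa5 rose by 1.29 on the log2 scale (SE 0.16, adjusted p = 0.00675), and Anxa4, Anxa3 and Anxa11 had log2FCs of 1.64, 0.78 and 0.67. Anxa8 fell, from 21.4 ± 4.68 CPM to 8.17 ± 3.04 CPM (SD over 3 libraries per diet, log2FC -1.39, adjusted p = 0.0260). Anxa1 and Anxa5 passed in all 6 fits without 1 library, and the other 5 called annexins in 1 or 2 of them. All 6 annexins that rose were highest in HFD replicate 3 and lowest of the HFD libraries in replicate 2. Iqgap1, Myh9, Mdm2 and Ly96, described next, stood the same way, as did Tlr4 and Anxa7, which were not called. Ryr2 and Anxa6 were highest in HFD replicate 2 instead. The summed macrophage markers had the order of the 6 annexins, and their part in these rises was not tested.

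Of 7 receptor genes, all tested, 1 was called, Ly96, which encodes the MD-2 protein of the Toll-like receptor 4 complex, with 5.003 ± 0.718 CPM under ND versus 9.72 ± 1.70 CPM under HFD (SD over 3 libraries per diet, log2FC 0.96, adjusted p = 0.0284, edgeR). Over all genes tested 15.9% were called in either direction, and Ly96 passed in 1 of 6 fits without 1 library. Tlr4 had 35.2 ± 3.77 CPM and 53.5 ± 15.3 CPM without overlap (SD over 3 libraries per diet, adjusted p = 0.0919). Ager, which encodes RAGE, had 24, 12 and 71 counts under ND versus 38, 13 and 16 under HFD, with overlap (log2FC -0.55, SE 0.67, adjusted p = 0.598). Cd36, the fatty acid and lipoprotein receptor, was the most counted of the list, at 3603 ± 491 CPM under ND versus 5470 ± 564 CPM under HFD (SD over 3 libraries per diet, adjusted p = 0.114).

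Of 16 other partner genes 14 were tested, and 4 were higher and 0 lower. DESeq2 called 5 of them, where it called 19.1% of its tested genes in either direction. Myh9, the heavy chain of the myosin that S100a4 binds, had a log2FC of 0.71 (adjusted p = 0.0286), and Iqgap1, a scaffold of the cytoskeleton that S100b binds, had 1.66 (adjusted p = 0.0149, edgeR). Ryr2, the cardiac ryanodine receptor that S100a1 binds, had 6, 2 and 10 counts under ND versus 52, 72 and 65 under HFD (log2FC 3.49, SE 0.50). It reached at most 0.152 FPKM in any library. Like S100g, Ryr2 entered the test through its HFD libraries, so its p-value is not given as support. Mdm2, the ubiquitin ligase of p53, had a log2FC of 0.99 (adjusted p = 0.0479, edgeR). Myh9, Iqgap1 and Mdm2 each passed in 2 of the 6 fits without 1 library, and Mdm2 passed in 5 of 11 other settings. Ahnak, the large scaffold bound by the S100a10 and annexin A2 complex, had 1249 ± 60.9 CPM and 1545 ± 62.3 CPM (SD over 3 libraries per diet) and did not pass (log2FC 0.31, adjusted p = 0.248).

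**Figure D5:**
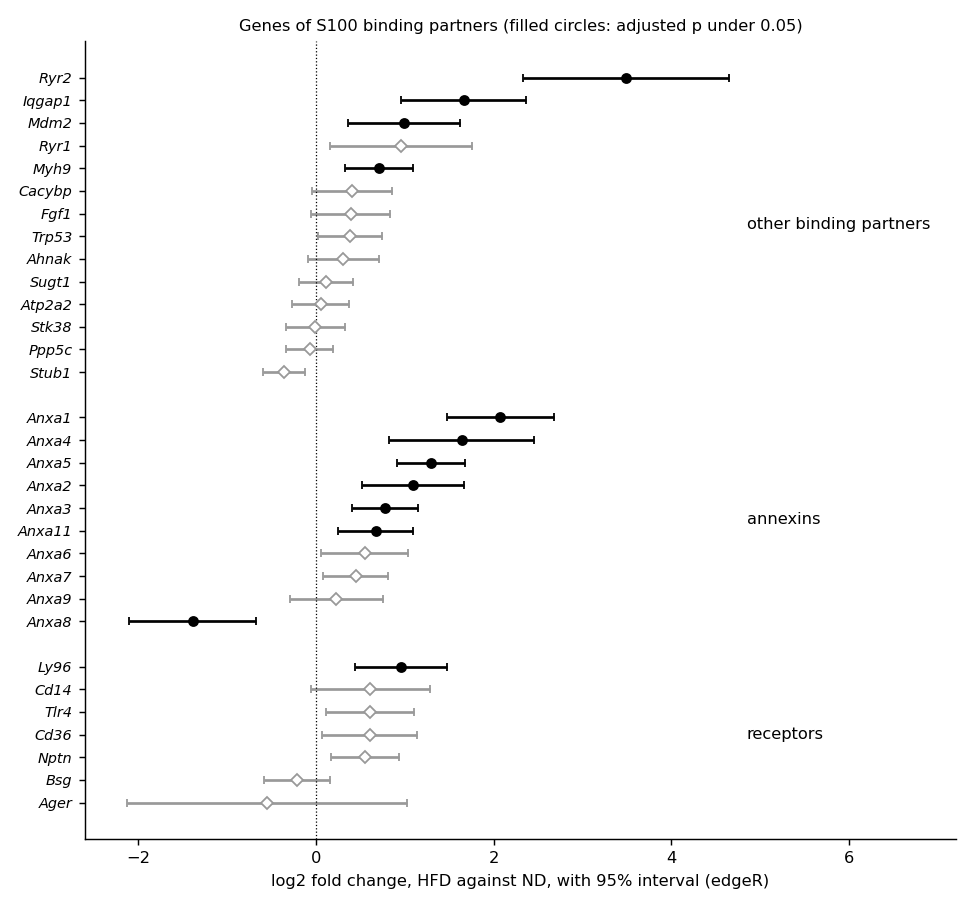
Log2 fold change for HFD against ND, with 95% CIs from edgeR, of the 31 tested genes of receptors, annexins and other binding partners of S100 proteins. The filled circles, at an adjusted p under 0.05, are 6 annexins above 0 and Anxa8 below it, Ly96 among the receptors, and Ryr2, Iqgap1, Mdm2 and Myh9 among the others.

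The genes beside the S100 cluster on chromosome 3 are given for comparison. Between 200000 bases before the first and 200000 after the last member there, 18 genes were tested, of which 9 were not members. Among these 9, 1 was higher and 0 were lower, with a median log2FC of -0.03. Chtop and Snapin, the tested genes next to S100a1, had -0.14 and 0.11, and neither passed (adjusted p = 0.408 and 0.502, edgeR).

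The genes whose levels across the 6 libraries were most like each member's were sought among 13414 genes by the root mean square difference of centred log2 CPM, as a description. For S100a8 they were Lep, which encodes leptin (difference 0.148), Pcolce2 and Hapln3. For S100a6 they were Atp6v0c, a subunit of the lysosomal proton pump (0.061), the complement gene C1qc (0.062) and Atp13a2. S100a4 was most like Cyfip2 (0.0926), Aprt and Tnfrsf26, and S100a11 most like Map4 (0.0322), Slc3a2 and Fez2. S100a1 was most like Kctd6 (0.123), Gm28661 and Fads1, a fatty acid desaturase, and S100a16 most like Prdx3, a peroxidase of the mitochondria (0.0266), Bloc1s5 and Stat5a. The nearest genes were Atg7 for S100a10 (0.028), Hdac2 for S100a13 (0.0281), Gkn3 for S100a9 (0.158) and Pi16 for S100b (0.27). The 6 libraries fall into the 2 diets, so any gene that moves with diet comes out near the members that do.

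For the other cell types the tissue could hold, 6 of 12 marker lists had no gene called by edgeR. These were fibroblasts and progenitors, endothelium, mesothelium, epithelium, T cells and mast cells, with 34 genes of which 30 were tested, 5 at an unadjusted p under 0.05 and 4 called by DESeq2. Of the 4 mast cell markers, 3 were at an unadjusted p under 0.05 by edgeR and 3 were called by DESeq2, with a median log2FC of 1.62. DESeq2 called 19.1% of its tested genes in either direction, and the share of all genes at an unadjusted p under 0.05 is not given here. The summed level of the mast cell markers was 19.7 to 43.6 CPM on ND and 60.9, 42.9 and 179.5 CPM in HFD replicates 1, 2 and 3. This is the replicate order of S100a6 and S100a4, and the part of these markers in those rises was not tested. Among 4 dendritic cell markers Ccr7 was higher. Adipoq and Plin1, defining markers of adipocytes, were abundant in all libraries, at 3303 ± 496 CPM and 1862 ± 282 CPM under ND and 2311 ± 1416 CPM and 1076 ± 454 CPM under HFD (SD over 3 libraries per diet), and neither was called.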

How the data were processed

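RNA-Seq of epididymal fat was compared between 3 ND and 3 HFD libraries. Groups and replicate numbers come from the sample titles, and diets from the study's methods. The authors deposited raw counts per gene and FPKM values. Their methods name TopHat and Cufflinks on GRCm38, whereas the submitters' processing notes list fastp, HISAT2 2.0.5, featureCounts 1.5.0-p3 and a human build. The identifiers are mouse genes, and 54495 of 54532 matched GENCODE M21. For the 10 members, count divided by FPKM followed the exon length of that release within 1.19e-07%.

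The main test was edgeR 4.0.16 (R 4.3.3, quasi-likelihood, robust, TMM, filterByExpr), Benjamini-Hochberg adjusted over all genes tested, with a threshold of 0.05. Standard errors (SE) derive from the F statistic. An exact permutation test of 3 against 3 libraries has a smallest p of 0.1. Alternatives used DESeq2 1.42.0, limma 3.58.1, other normalizations and filters, a replicate block, left-out libraries, and limma on log2(FPKM + 1) or log2(FPKM + 0.1) for genes of at least 0.5 FPKM in at least 3 libraries. The edgeR and DESeq2 fits were also run on simulated counts, and the outcome is not given here.

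The members and lists were chosen with earlier results of these data known. Named genes are all members, the further S100 genes, Ager, Tlr4, Anxa2, Ahnak, partner genes past the threshold and the 3 nearest genes by likeness with an average log2 CPM above 1. Other genes named are list members or neighbours singled out after their values were seen. Protein sequences were not used here.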

Additional observations from a re-analysis of the deposited data

How the results depend on the processing

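All 10 members kept the sign of their log2FC under the 11 other settings with all libraries, and S100a1 passed in each of them and in all 6 fits without 1 library. Of the 4 S100 genes that were higher, 1 passed with the replicate number as a block, 2 on log2(FPKM + 1), 2 on log2(FPKM + 0.1) and 1 on unfiltered FPKM, and 0 to 3 without 1 library at a time. Of the 2 that were lower, 1 passed on unfiltered FPKM, 1 with a required log2FC beyond 1 in either direction, and 1 to 2 without 1 library. With limma-voom S100a4 did not pass (adjusted p = 0.0844). The log2FC of S100b went from -0.28 to 0.54 over the fits without 1 library, and was negative without ND replicate 2 (-0.03) or HFD replicate 2 (-0.28).

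The 2504 genes past the threshold became 649 on unfiltered FPKM, 1585 with the fold-change requirement and 474 to 3940 without 1 library, fewest without HFD replicate 1 and most without HFD replicate 2. The 1552 higher genes became 394, 1034 and 337 to 2368 in the same settings. The 952 lower genes became 255, 551 and 94 to 1572, and 1596 with DESeq2. Of the partner genes, the 11 that were higher became 7 with the block, 2 on unfiltered FPKM and 3 to 14 without 1 library, most without HFD replicate 2. The 1 that was lower became 2 with DESeq2, with DESeq2's size factors and with robust=FALSE, 0 on unfiltered FPKM and 0 to 1 without 1 library. Why the counts moved was not tested.

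Same-numbered libraries did not deviate together (correlations of -0.0858, -0.0556 and -0.00532 across 15751 genes), so the block shares only a number. With the block the adjusted p-values were 0.0696 for S100a4, 0.0612 for S100a8 and 0.0637 for S100a11. S100a4, S100a9 and S100b had 2 to 78 counts in a library, which sets the counting error of their values. Aprt, a gene with higher counts near S100a4 by likeness, had 67.0, 37.6 and 132 CPM in HFD replicates 1, 2 and 3. It was picked because its values over these same libraries resemble those of S100a4, so its spread is no separate support.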
